A study of Mus musculus with 12 samples.

Results

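Fc receptors are the proteins by which a macrophage binds the constant end of an antibody. Mouse macrophages carry 4 receptors for immunoglobulin G (IgG). Fcgr1 binds IgG with high affinity, Fcgr3 and Fcgr4 bind it mainly in immune complexes, and all of them signal through the gamma chain encoded by Fcer1g, whose phosphorylated tail recruits the kinase Syk and starts phagocytosis and cytokine release. Fcgr2b carries an inhibitory motif instead and recruits phosphatases that damp the same signal. Fcgrt, the neonatal Fc receptor, works inside the cell with beta-2 microglobulin and returns swallowed IgG to the surface before it is degraded. These 6 genes were chosen by name, as the receptors that hold antibody and their shared chain. They were represented by 7 named probes (2 for Fcgr2b), out of 22911 named genes on the array, and all 6 were among the 13283 genes tested.

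RNA was measured on 12 one-colour Agilent arrays of macrophages from the abdominal cavity of C57/BL6 mice. The cells were wild type (WT) or came from GPR15 KO mice, which lack a G protein-coupled receptor, and were cultured with PBS or with 100 ng/ml LPS, a bacterial cell-wall component that macrophages sense. Exposure lasted 4 h, and each of the 4 groups (WT PBS, WT LPS, KO PBS and KO LPS) had 3 arrays. The labels give no age or sex of the mice, no account of how macrophages were separated from other abdominal cells, and only a number for each replicate, so p-values may measure technical spread alone.

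Each array was scaled by its own 75th percentile, so a level of 0 on the log2 scale is the brightness at that percentile and a difference of 1 is a doubling. Levels are compared only within a probe, since probes differ in how brightly they light up. All 7 probes were well above background on 12 of 12 arrays, and 0 spots were saturated. Of the 59305 spots that are no controls, 48.8% to 57.1% per array were well above background. Gpr15 was well above background on 0 of 12 arrays, so it could not check the KO label. The 6 WT arrays all showed Xist and the 6 KO arrays did not, whereas the Y-linked Ddx3y, Kdm5d and Uty were above background on all 6 KO arrays and on 0 WT arrays. The Y-linked Eif2s3y was above background on all 6 KO arrays and on 1 WT LPS array. Genotype therefore cannot be told apart from this difference in sex-linked genes in any comparison of KO with WT. Slide 1 held 8 arrays, all from WT plus KO PBS replicates 1 and 2. Slide 2 held 4 arrays, KO PBS replicate 3 and all of KO LPS. All 8 macrophage markers (Adgre1, Csf1r and others) were well above background in every group. So were all 10 B-cell markers, and all 8 mast-cell markers except 1 in WT LPS, while the NK-cell genes Eomes, Klrb1c and Ncr1, the neutrophil genes Cxcr2 and Ngp and the eosinophil genes Epx and Prg2 were not above background in any group. Other genes of those lists were well above background on 12 of 12 arrays, among them Gzma, Klrk1 and Prf1 (NK cell), S100a8, S100a9, Camp and Elane (neutrophil), and Siglecf and Ccr3 (eosinophil). Of 6 T-cell markers with a probe, 5 were well above background in every group. Of 6 dendritic-cell markers, 4 were so in each PBS group and 5 in each LPS group.

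The stretches just upstream of 3 of these genes are shown because the LPS responses below differ between them. They are the 150 bases before the RefSeq transcription start in assembly GRCm38.p6, read 5′ to 3′ along each gene. Capitals mark matches to 3 short motifs searched on both strands: GAGGAA, the core bound by the myeloid factor PU.1; TTCNNNGAA, the gamma-activated site (GAS) of interferon-responsive genes; and the core of the interferon-stimulated response element (ISRE core). On the strand shown, a PU.1 match can read TTCCTC.
Fcgr1, chr3:96293970-96294119, minus strand: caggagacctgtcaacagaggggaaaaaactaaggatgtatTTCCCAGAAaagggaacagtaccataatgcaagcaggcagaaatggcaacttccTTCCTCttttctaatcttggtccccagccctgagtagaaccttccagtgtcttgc
Fcgr4, chr1:171018776-171018925, plus strand: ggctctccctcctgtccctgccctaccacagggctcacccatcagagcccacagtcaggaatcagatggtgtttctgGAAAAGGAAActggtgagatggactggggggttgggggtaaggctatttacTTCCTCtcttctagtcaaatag
Fcgr2b, chr1:170976072-170976221, minus strand: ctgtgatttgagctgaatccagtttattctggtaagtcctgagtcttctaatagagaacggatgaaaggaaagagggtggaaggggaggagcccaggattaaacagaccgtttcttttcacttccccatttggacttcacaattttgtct

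The Fcgr1 stretch held a GAS match from 109 to 101 bases before the start and a PU.1 match from 55 to 50 bases before it. The Fcgr4 stretch held an ISRE core match from 73 to 64 bases before the start and a PU.1 match from 22 to 17. The Fcgr2b stretch held none of these letters. Over the 250 bases before each of 32841 RefSeq starts, 23.3% held the PU.1 letters, 7.02% the GAS letters and 2.98% the ISRE core letters. Fcgr3, whose window is not printed, held a PU.1 match from 6 to 1 bases before its first start site and no GAS or ISRE core match. Fcer1g and Fcgrt held 0 matches to any of the 3 motifs in their 250 bases. An AP-1 motif (TGANTCA, in 6.75% of all windows) and an NF-kB motif (in 7.25%) were searched too: AP-1 matched in 0 of the 6 genes, and NF-kB from 152 to 143 bases before the start of both Fcgr4 and Fcgr3. A match describes the letters only, and none of these data measured binding. Whether any match bears on the LPS responses was not tested.

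LPS raised 5 of the 6 Fc receptor genes in WT macrophages and lowered the remaining one, Fcgrt. The rises were unequal: the high-affinity receptor Fcgr1 rose 5.35-fold, Fcgr4 2.76-fold, Fcgr3 1.47-fold, the inhibitory Fcgr2b 1.37-fold and the gamma chain Fcer1g 1.22-fold. With limma and Benjamini-Hochberg adjustment over all tested genes, 64.7% of the 13283 genes passed a threshold of 0.05 in this comparison (33.7% higher and 31.0% lower), so a call was common and the count of 6 among 6 says less than the sizes. The median change of the 6 genes was 0.50 on the log2 scale, against 0.03 over all tested genes. In bulk RNA, fewer cells of a type and less RNA per cell cannot be told apart.

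Fcgr1 had log2 levels of 0.70, 0.93 and -0.68 on the WT PBS arrays (replicates 1 to 3) and 2.98, 3.11 and 2.12 on the WT LPS arrays. All WT LPS arrays lay above all WT PBS arrays, and replicate 3 was the lowest of each group. The change was 2.42 ± 0.35 (SE of the limma fit, n = 3 arrays per group, 95% interval 1.65 to 3.19, adjusted p = 7.18e-05), rank 139 from the top among 13283 genes. Within equal replicate numbers, LPS minus PBS was 2.28, 2.18 and 2.80, so the low level of replicate 3 in both groups left its response as large as that of the other two.

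Fcgr4, the receptor for IgG2a and IgG2b complexes, had levels of 1.14, 1.36 and -0.10 in WT PBS and 2.66, 2.88 and 1.27 in WT LPS. The groups overlapped, because WT LPS replicate 3 lay below WT PBS replicate 2. The change of 1.47 ± 0.40 (95% interval 0.58 to 2.35) passed the limma test at an adjusted p of 0.00689. By equal replicate number it was 1.51, 1.52 and 1.37, a far narrower spread than that of the levels.

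Fcgr3, the low-affinity activating receptor, had levels of 3.56, 3.71 and 3.15 in WT PBS and 4.11, 4.17 and 3.80 in WT LPS. The groups did not overlap, as for 5 of the 6 genes here and for 69.4% of all tested genes, and replicate 3 was again the lowest of each. The change was 0.55 ± 0.14 (limma, adjusted p = 0.00456).

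The gamma chain gene Fcer1g moved within a narrow range. Its levels were 6.58, 6.57 and 6.42 in WT PBS and 6.85, 6.89 and 6.69 in WT LPS, a change of 0.29 ± 0.08 (limma, adjusted p = 0.00581). That call was lost under quantile normalization, which forces all arrays to 1 distribution, with a change of 0.02 and an adjusted p of 0.835.

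Fcgr2b, the inhibitory receptor, had levels of 3.99, 4.01 and 3.82 in WT PBS and 4.42, 4.62 and 4.14 in WT LPS on its brighter probe. The change was 0.45 ± 0.12 (limma, adjusted p = 0.00689), and under quantile normalization it was 0.24 with an adjusted p of 0.0905. A second, dimmer probe for Fcgr2b read 1.62, 1.77 and 1.59 in WT PBS and 2.40, 2.55 and 2.04 in WT LPS. Its change of 0.67 ± 0.14 was in the same direction (limma over 28827 probes, adjusted p = 0.00155). Whether either probe also binds the closely related Fcgr3 transcript was not tested.

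Fcgrt, the recycling receptor, went the other way. Its levels were 0.41, 0.39 and 0.44 in WT PBS and 0.23, 0.25 and 0.12 in WT LPS, with no overlap. It fell by 0.21 ± 0.07 (1.16-fold, limma, adjusted p = 0.0132). The call was lost under median centring (-0.17, adjusted p = 0.0731), without WT LPS replicate 3 (-0.17, adjusted p = 0.0521) and without both WT replicate 3 arrays (-0.16, adjusted p = 0.0991).

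**Figure D1:**
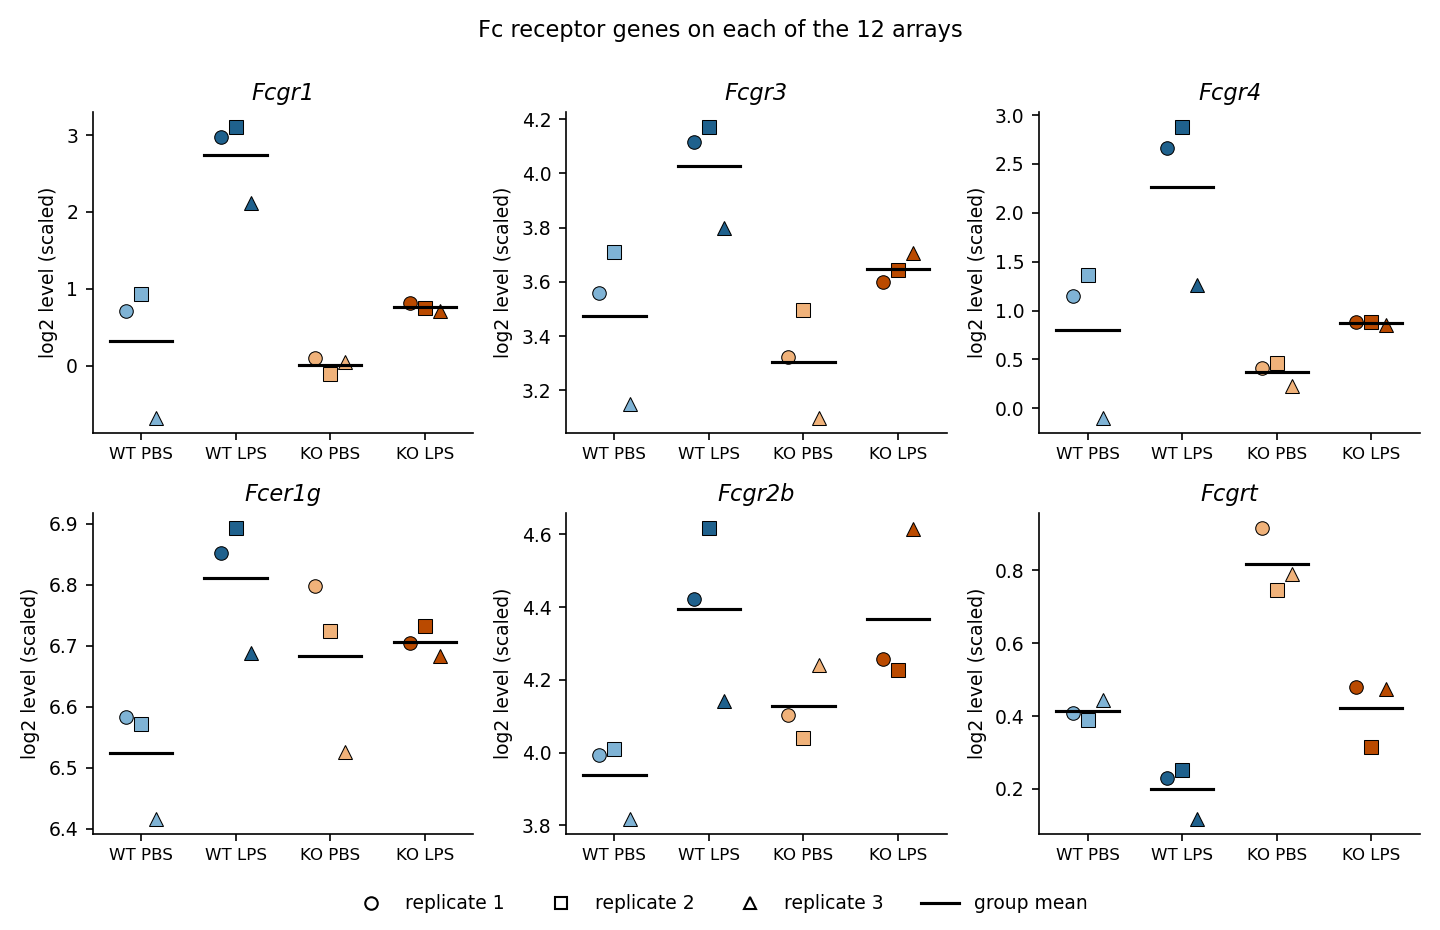
Scaled log2 level (vertical axis, a separate range for each gene) of the 6 Fc receptor genes on each of the 12 arrays, by group; symbols mark the replicate number and bars the mean of 3 arrays. Fcgr1 and Fcgr4 reach 3.11 and 2.88 in WT LPS and stay at or below 0.82 and 0.88 in KO LPS, and the triangles of WT replicate 3 lie low in both WT groups.

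In KO macrophages the same LPS exposure gave smaller estimates for every one of the 5 genes that rose in WT cells, and only Fcgr3 and Fcgrt passed the test in the fit of all 12 arrays. In this comparison 67.0% of the 13283 genes passed (35.1% higher and 32.0% lower), and 72.1% had groups that did not overlap, against 2 and 4 of the 6 Fc receptor genes. The median change of the 6 genes was 0.29, and that of all genes was 0.04.

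Fcgr1 read 0.10, -0.11 and 0.04 in KO PBS and 0.82, 0.75 and 0.71 in KO LPS. The KO groups did not overlap, yet the change of 0.75 ± 0.35 (95% interval -0.03 to 1.52) did not pass (limma, adjusted p = 0.08), in a fit that shares 1 spread among the 4 groups. The SD of the 3 arrays was 0.88 in WT PBS and 0.54 in WT LPS, against 0.11 in KO PBS and 0.05 in KO LPS. A fit of the KO arrays alone gave the same change with an SE of 0.07 and an adjusted p of 4.42e-05, and the shared fit without both WT replicate 3 arrays gave an adjusted p of 6.18e-06.

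Fcgr4 read 0.42, 0.47 and 0.23 in KO PBS and 0.88, 0.88 and 0.85 in KO LPS, with no overlap. The change was 0.50 ± 0.40 (limma, adjusted p = 0.288), or 0.50 with an adjusted p of 0.000431 in the fit of the KO arrays alone. On slide 2 alone, with 3 LPS arrays against the single PBS array, Fcgr1 was 0.71 higher and Fcgr4 0.64 higher.

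Fcgr3 read 3.32, 3.50 and 3.10 in KO PBS and 3.60, 3.64 and 3.71 in KO LPS, a rise of 0.34 ± 0.14 that passed narrowly (limma, adjusted p = 0.0499). The call was lost when any one of KO PBS replicates 1 and 3 or KO LPS replicates 1, 2 and 3 was left out, with adjusted p between 0.0767 and 0.18. It was also lost under quantile normalization (0.23, adjusted p = 0.144), median centring (0.33, adjusted p = 0.0892) and without the filter on dim probes (adjusted p = 0.0803).

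Fcer1g did not separate the KO groups, at 6.80, 6.72 and 6.53 in PBS and 6.70, 6.73 and 6.68 after LPS, a change of 0.02 ± 0.08 (95% interval -0.14 to 0.19, limma, adjusted p = 0.794). Its estimate ran from -0.16 under quantile normalization (adjusted p = 0.0417) to 0.18 on slide 2 alone (adjusted p = 0.00653). Fcgr2b overlapped as well, at 4.10, 4.04 and 4.24 in PBS and 4.26, 4.23 and 4.62 after LPS (0.24 ± 0.12, limma, adjusted p = 0.108). The dimmer Fcgr2b probe did pass, at 0.50 ± 0.14 with an adjusted p of 0.00894 in the limma fit over all probes, so the 2 probes gave different calls in KO cells.

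Fcgrt fell by 0.39 ± 0.07 in KO cells (1.31-fold, limma, adjusted p = 0.000242), with the smallest adjusted p of the 6 genes there. Its levels were 0.92, 0.75 and 0.79 in KO PBS and 0.48, 0.31 and 0.47 in KO LPS.

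**Figure D2:**
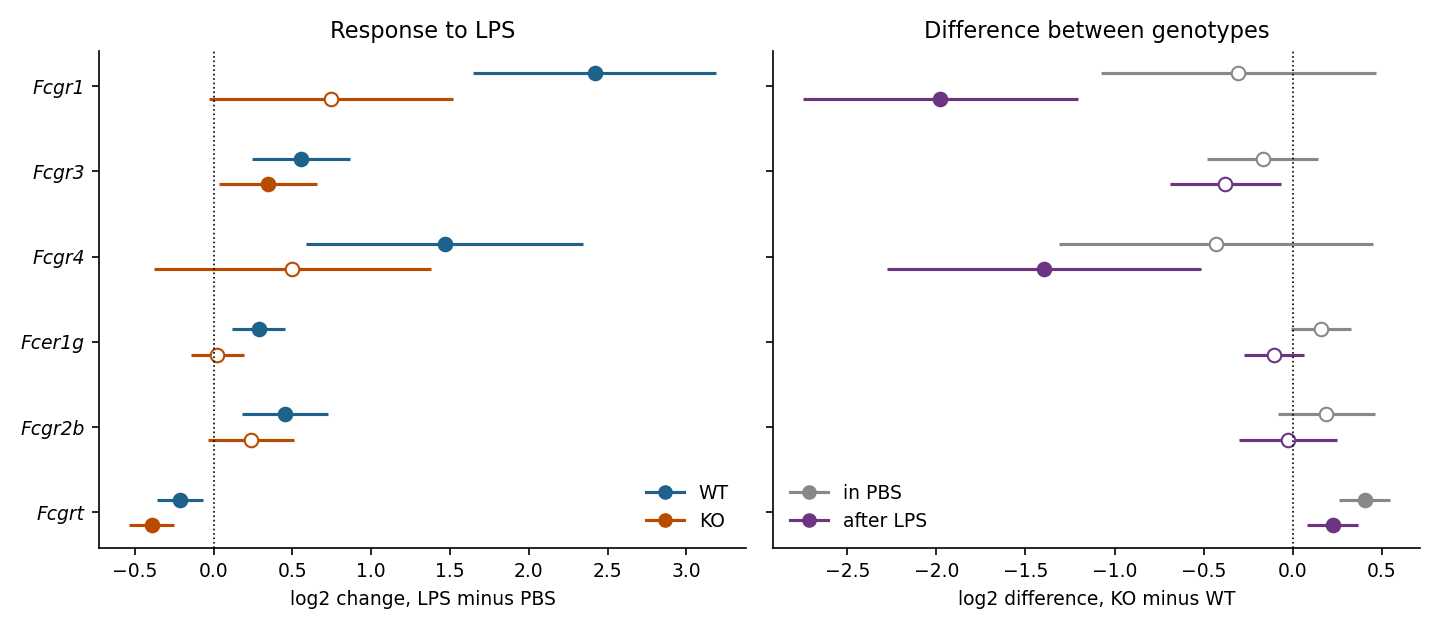
Log2 change of each Fc receptor gene with its 95% interval from the limma fit: left, LPS minus PBS in WT and KO cells; right, KO minus WT in PBS and after LPS. Filled points passed an adjusted p of 0.05 and open points did not; Fcgr1 stands at 2.42 in WT and 0.75 in KO cells, and at -1.98 for KO minus WT after LPS.

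Without LPS, Fcgrt was the only Fc receptor gene that differed between the genotypes in the fit of all 12 arrays, by limma at an adjusted p of 0.05. It was 0.40 ± 0.07 higher in KO cells (1.32-fold, adjusted p = 0.00236), and every KO PBS array lay above every WT PBS array. On slide 1 alone, with 3 WT and 2 KO arrays, the difference was 0.42 with an adjusted p of 0.0137. In all, 14.1% of tested genes passed in this comparison (8.06% higher and 6.05% lower in KO cells), and 30.5% had groups that did not overlap, against 1 and 2 of the 6 Fc receptor genes. The second such gene was Fcgr2b, 0.19 ± 0.12 higher in KO cells (limma, adjusted p = 0.34).

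The activating receptors were not called in PBS, with wide intervals. KO minus WT was -0.31 ± 0.35 for Fcgr1 (95% interval -1.08 to 0.47, limma, adjusted p = 0.601), -0.43 ± 0.40 for Fcgr4 (-1.31 to 0.45, adjusted p = 0.507) and -0.17 ± 0.14 for Fcgr3 (-0.48 to 0.14, adjusted p = 0.461). For Fcgr1 and Fcgr4, the 3 KO arrays lay below WT PBS replicates 1 and 2 and above WT PBS replicate 3. Without WT PBS replicate 3, Fcgr1 was 0.81 lower in KO cells (-0.81, adjusted p = 0.0286). Without both WT replicate 3 arrays, an alternative chosen after their values had been seen, the differences were -0.81 for Fcgr1, -0.88 for Fcgr4 and -0.33 for Fcgr3, with adjusted p of 9.15e-05, 8.78e-05 and 0.03. Without WT PBS replicate 2 instead, the Fcgr1 difference was 0.0028, with an adjusted p of 0.997. The PBS comparison of the activating receptors thus turned on single WT arrays.

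Fcer1g was 0.16 ± 0.08 higher in KO PBS (95% interval -0.01 to 0.33, limma, adjusted p = 0.187). Without KO PBS replicate 3, the one KO PBS array on slide 2, the difference was 0.24 with an adjusted p of 0.0439.

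After LPS, the KO cells held less Fcgr1 and Fcgr4 RNA than the WT cells and more Fcgrt RNA. Fcgr1 was 3.94-fold lower, a difference of -1.98 ± 0.35 (95% interval -2.75 to -1.21, limma, adjusted p = 0.00166), rank 14 from the lowest among 13283 genes. Fcgr4 was 2.63-fold lower, at -1.40 ± 0.40 (adjusted p = 0.0178), rank 45 from the lowest. For both genes even the lowest WT LPS array, replicate 3, lay above all KO LPS arrays, at 2.12 against 0.82 or less for Fcgr1 and at 1.27 against 0.88 or less for Fcgr4. In this comparison 39.5% of all tested genes passed (20.0% higher and 19.5% lower) and 58.4% had groups that did not overlap, against 3 and 4 of the 6 Fc receptor genes. The comparison shares its KO LPS and WT LPS arrays with the LPS comparisons above, so these values are not independent of those.

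Fcgr3 was 0.38 ± 0.14 lower after LPS in KO cells without overlap, and just missed the threshold (limma, adjusted p = 0.0527). It passed without WT LPS replicate 3 (-0.49, adjusted p = 0.0219), under median centring (-0.49, adjusted p = 0.0272) and in a fit of the LPS arrays alone (adjusted p = 0.0131). Fcgr2b differed by -0.03 ± 0.12 (95% interval -0.30 to 0.25, adjusted p = 0.884) and Fcer1g by -0.10 ± 0.08 (-0.27 to 0.06, adjusted p = 0.298). Fcgrt was 0.22 ± 0.07 higher in KO cells (adjusted p = 0.0198), but 0.12 with an adjusted p of 0.248 under median centring, which moves the median of all genes in this comparison from -0.01 to -0.12.

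WT and KO cells after LPS lay on different slides. With slide as a term in the model, which rests on KO PBS replicate 3 alone, the difference was -2.03 ± 0.68 for Fcgr1 and -1.19 ± 0.77 for Fcgr4. Neither passed (limma, adjusted p = 0.114 and 0.406), nor did Fcgrt (0.27, adjusted p = 0.21), and over all genes 776 passed where 5242 had without the term. The Fcgr4 call was also lost without WT LPS replicate 1 (-1.20, adjusted p = 0.0683), WT LPS replicate 2 (-1.09, adjusted p = 0.0746) or KO LPS replicate 3 (-1.39, adjusted p = 0.0502). The Fcgrt call was lost without WT LPS replicate 3, KO LPS replicate 1 or KO LPS replicate 3, with adjusted p between 0.0633 and 0.0781.

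Whether LPS acted differently in the 2 genotypes was tested as the LPS change in KO cells less that in WT cells. By limma, 0 of the 6 Fc receptor genes passed after adjustment, whereas 4.31% of all tested genes did (0.926% higher and 3.39% lower). At an unadjusted limma p under 0.05 there were 2, Fcgr1 and Fcer1g, and 20.7% of all tested genes. A fit without the variance trend also called 0. The Fcgr1 response was 1.67 ± 0.50 smaller in KO cells (-1.67, 95% interval -2.76 to -0.58, adjusted p = 0.0899), which places it at rank 48 from the lowest. The Fcgr4 value was -0.97 ± 0.57 (adjusted p = 0.355) and the Fcer1g value -0.26 ± 0.11 (adjusted p = 0.198). For Fcgr2b, Fcgr3 and Fcgrt it lay between -0.21 and -0.18, with adjusted p of 0.296 to 0.58.

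The Fcgr1 value hinged on which WT arrays were in the fit. Its adjusted p was 0.0467 without WT PBS replicate 2 (-1.98), 0.0392 without WT PBS replicate 3 (-1.17) and 0.0356 without WT LPS replicate 3 (-1.98). Without both WT replicate 3 arrays, Fcgr1 stood at -1.48 ± 0.12 and Fcgr4 at -1.02 ± 0.13, with adjusted p of 2.76e-05 and 0.000637. In that fit 1154 of the 13283 tested genes passed, against 573 in the fit of all arrays. All WT arrays lay on slide 1 and all KO LPS arrays on slide 2, so the KO response was only partly separated from slide. With slide as a term, which rests on KO PBS replicate 3 alone, 393 genes passed, and neither Fcgr1 nor Fcgr4 did. Fcer1g passed without KO PBS replicate 3 (-0.34, adjusted p = 0.0263), a fit in which 2797 of the 13283 tested genes passed. There the remaining KO PBS arrays lay on slide 1 and all KO LPS arrays on slide 2. The LPS change in KO cells could therefore not be told apart from slide. With the replicate number as a block, Fcgr1 passed at an adjusted p of 0.0491. That block also joins WT and KO arrays of equal number, whose residuals correlated at only -0.102 to 0.0167. Equal numbers counted as pairs in WT but not in KO cells, by a cut on residual correlations that WT replicate 1 barely cleared. The direction for Fcgr1 was the same in each of these fits.

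The balance between the activating receptors and Fcgr2b was followed on each array as the mean log2 level of Fcgr1, Fcgr3 and Fcgr4 less that of Fcgr2b, set to 0 at the WT PBS mean. It was 1.03 ± 0.32 (SD, n = 3) in WT LPS, with a range from 0.66 to 1.24. The KO PBS arrays lay at -0.49 ± 0.19 (SD, n = 3) and the KO LPS arrays at -0.20 ± 0.22 (SD, n = 3). The WT PBS arrays alone ranged from -0.62 to 0.40, so they overlapped both KO groups, whereas all WT LPS arrays lay above the other 9. Taken singly against Fcgr2b, the WT LPS mean was 1.97 for Fcgr1, 1.01 for Fcgr4 and 0.10 for Fcgr3. All these values rest on the brighter Fcgr2b probe, which rose by 0.45 with LPS in WT cells. The dimmer probe rose by 0.67, more than Fcgr3 (0.55), so against it the Fcgr3 value would be negative and the others smaller.

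The activating receptors followed each other from array to array. Over the 12 arrays, Pearson's r was 0.96 between Fcgr1 and Fcgr4, 0.93 between Fcgr1 and Fcgr3 and 0.94 between Fcgr3 and Fcgr4, whereas it was 0.64 between Fcgr1 and Fcgr2b and -0.71 between Fcgr1 and Fcgrt. These values describe 12 arrays that fall into 4 groups and share the same scaling. Within both WT groups, replicate 3 was the lowest array for every Fc receptor gene except Fcgrt.

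Other cell markers moved with replicate 3 in the WT groups. The summed level of the 10 B-cell markers, in units of the array's 75th percentile, was 159, 149 and 186 in WT PBS and 88.0, 87.3 and 102 in WT LPS, highest on replicate 3 each time. The 7 markers of small peritoneal macrophages and monocytes summed to 127, 133 and 96.6 in WT PBS and 111, 120 and 95.8 in WT LPS, and the 8 mast-cell markers to 141, 150 and 111 and to 247, 263 and 241. Both were lowest on replicate 3 in each WT group, as Fcgr1 and Fcgr4 were. So were the neutrophil sum (8.47, 10.3 and 4.21 in WT LPS) and the NK-cell sum (3.97, 4.35 and 2.30 in WT LPS). Hdc, the brightest mast-cell marker, rose by 1.54 with LPS in WT and by 1.44 in KO cells. The median changes of the mast-cell list were 0.20 and 0.22. In WT cells 3 of its 8 genes were called higher and 2 lower (Kit at -0.36 and Ms4a2 at -2.11). Over all tested genes 33.7% were called higher and 31.0% lower there, so these counts lie near the background. In the KO groups the B-cell sum ran from 123 to 128 in PBS and from 74.5 to 75.5 after LPS, and the mast-cell sum from 99.1 to 116 and from 188 to 205. The sum for small peritoneal macrophages and monocytes ran from 125 to 154 in KO PBS and from 94.6 to 110 in KO LPS. Its KO PBS range thus reached above all WT PBS arrays, whereas the Fcgr1 and Fcgr4 means were lower in KO PBS than in WT PBS. Sums for the 8 markers of large peritoneal macrophages were 151 to 157 in WT PBS and 179 to 195 in KO PBS. After LPS they were 150 to 168 in WT and 172 to 186 in KO cells. The neutrophil sum ran from 3.29 to 4.16 in WT PBS and from 6.12 to 9.24 in KO PBS. After LPS its WT and KO ranges overlapped (8.01 to 10.1 in KO cells). The 8 general macrophage markers summed to between 634 and 729 over all 12 arrays. That sum weighs bright genes most, and Cd14, the brightest, rose by 0.48 with LPS in both genotypes. In each genotype 6 of the 8 were called lower with LPS and 1 higher (median -0.46 in WT and -0.49 in KO cells). Over all tested genes 31.0% fell in WT and 32.0% in KO cells. The part of any of these cells in the Fc receptor values was not tested.

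**Figure D3:**
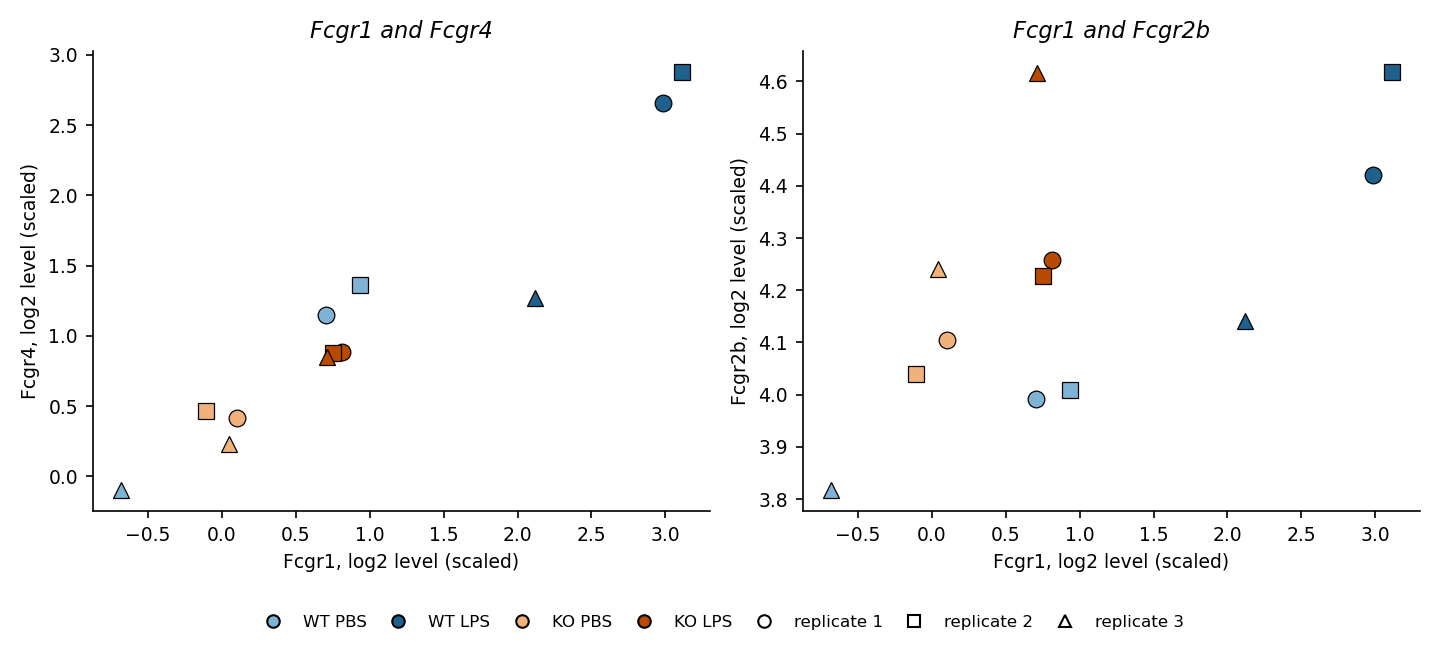
Scaled log2 level of Fcgr1 (horizontal axis) against Fcgr4 (left) and Fcgr2b (right), 1 point per array, with colours for the 4 groups and symbols for replicate numbers. Fcgr1 and Fcgr4 rise together over the 12 arrays, from WT PBS replicate 3 (-0.68 and -0.10) to WT LPS replicate 2 (3.11 and 2.88), whereas KO LPS replicate 3 reaches the Fcgr2b level of WT LPS replicate 2 (4.62) at an Fcgr1 level of only 0.71.

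Among the genes downstream of the receptors, falls outnumbered rises. Of 22 measured genes of activating Fc receptor signalling, 11 fell and 5 rose with LPS in WT cells, and 11 fell and 6 rose in KO cells. The background was 31.0% lower and 33.7% higher in WT cells, and 32.0% lower and 35.1% higher in KO cells. The median change of the list was -0.15 in WT cells and -0.27 in KO cells. Plcg2, the phospholipase that raises calcium, fell by 0.89 ± 0.05 in WT cells (limma, adjusted p = 1.74e-08). The adaptor gene Lat2 changed by -0.99 and the kinase subunit gene Pik3r1 by -0.96. The same 3 genes stood at -0.86, -0.90 and -0.79 in KO cells, all called by the same test. Syk itself, the kinase that docks on the gamma chain, fell by 0.46 in WT and by 0.33 in KO cells, and is named for its role, outside the naming rule.

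Falls outnumbered rises among the enzymes that end the signal too. Of 13 measured signal-limiting enzymes and adaptors, 8 fell and 2 rose in WT cells, and 9 fell and 2 rose in KO cells, with medians of -0.58 and -0.46. Over all tested genes 31.0% fell in WT and 32.0% in KO cells. Inpp5d, the lipid phosphatase SHIP1 through which Fcgr2b acts, fell by 1.23 ± 0.07 in WT cells and by 1.06 ± 0.07 in KO cells (limma, adjusted p = 2.07e-08 and 8.99e-08). Ptpn6, which encodes the phosphatase SHP-1, changed by -1.19 in WT and -1.40 in KO cells, Ptpn22 by -1.36 and -1.42, and the adaptor gene Dok3 by -1.94 and -1.92. In the interaction, where 4.31% of all tested genes passed, 2 of the 22 activating genes did, among them Prkcd, a protein kinase C gene, at -0.36.

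**Figure D4:**
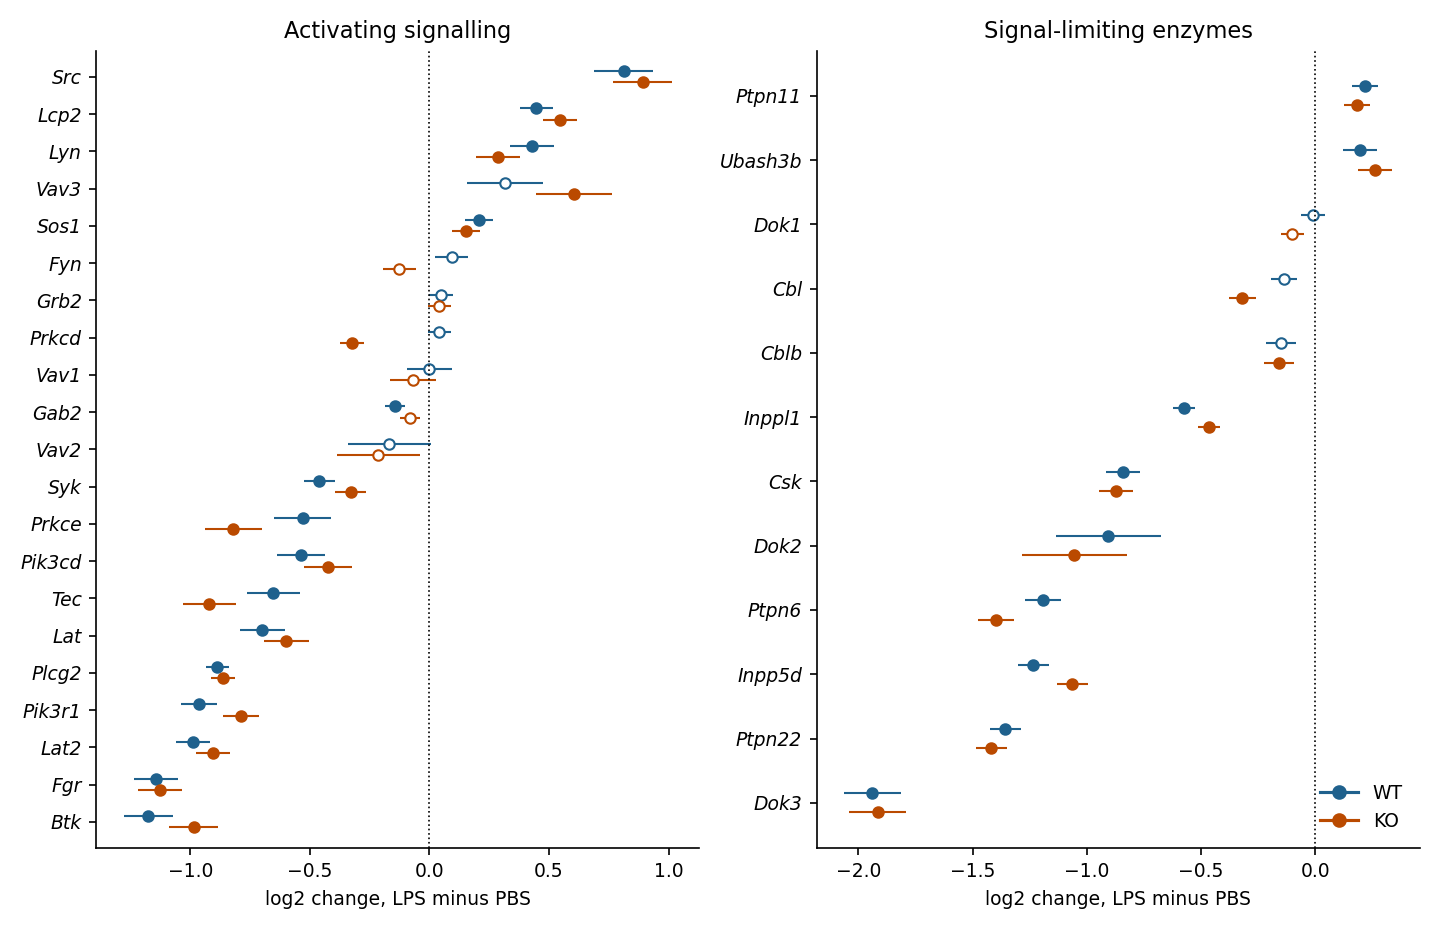
Log2 change with LPS (LPS minus PBS, bars ± SE of the limma fit) of 21 genes of activating signalling (left) and 12 signal-limiting enzymes (right), in WT and KO cells; filled points passed an adjusted p of 0.05. The WT and KO points lie close together for most genes, as for Dok3 at -1.94 and -1.92 and Plcg2 at -0.89 and -0.86.

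Between the genotypes in PBS, 5 activating signalling genes passed as higher in the KO and 1 as lower, with Fgr at 0.52, Lcp2 at 0.37 and Prkcd at 0.24, against a background of 14.1% called. After LPS, where 39.5% of all tested genes passed, 4 of the 22 were higher and 5 lower, a share near that background, with Lcp2 at 0.47, Fgr at 0.54 and Gab2 at 0.24 among the higher and Lyn at -0.32 among the lower. Of the signal-limiting genes, 1 was higher and 2 lower in PBS (among them Ptpn6 at 0.28 and Csk at -0.25), and 2 were higher and 3 lower after LPS.

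Fcer1g also serves as the signalling chain of several lectin and Ig-like receptors. Of 10 such receptors measured, 5 fell and 1 rose with LPS in WT cells, and 4 fell and 2 rose in KO cells. Over all tested genes 31.0% fell and 33.7% rose in WT cells, and 32.0% and 35.1% in KO cells. Clec4b1 and Clec4n, which encode the lectins Dcar and dectin-2, fell steeply, with changes of -3.75 and -3.68 in WT cells and -3.33 and -3.00 in KO cells, while Lilra6 rose by 1.38 and 1.90. After LPS, 5 of the 10 were higher in KO than in WT cells and 0 were lower, against 20.0% higher and 19.5% lower over all tested genes. Among them were Clec4d at 0.26, Lilra6 at 0.60, Oscar at 0.76 and Clec4n at 0.90.

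Of 11 other immunoglobulin receptor genes measured, 5 fell and 2 rose in WT cells, and 4 fell and 4 rose in KO cells. Over all tested genes 31.0% fell and 33.7% rose in WT cells, and 32.0% and 35.1% in KO cells, so the KO counts lie near the background. Fcmr, the IgM receptor, changed by -1.88 in WT and -2.28 in KO cells, and Fcrla, an intracellular Fc receptor-like protein of B cells, by -2.21 and -2.38. The summed B-cell markers were also lower after LPS in both genotypes, as given above, and their part in these values was not tested. Trim21, the cytosolic antibody receptor, rose by 1.24 in WT and 0.40 in KO cells, and its interaction passed (-0.84 ± 0.14, limma, adjusted p = 0.00321). Trim21 was 0.46 higher in KO cells in PBS and 0.37 lower (-0.37) after LPS.

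For the recycling receptor, 6 partner and class I-like genes were measured. With LPS, 2 rose and 2 fell in WT cells, and 1 rose and 2 fell in KO cells. Over all tested genes 33.7% rose and 31.0% fell in WT cells, and 35.1% and 32.0% in KO cells, so the WT counts lie near the background. B2m, the light chain that Fcgrt requires, rose by 0.24 ± 0.05 in WT cells (limma, adjusted p = 0.00191), opposite to Fcgrt, and was 0.16 lower (-0.16) in KO than in WT cells after LPS. The iron regulator gene Hfe changed by -1.84 and -1.72 in WT and KO cells, the lipid-presenting Cd1d1 by -1.35 and -1.25, and the protein C receptor gene Procr by 1.86 and 1.83.

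In the machinery that carries out phagocytosis, LPS raised 10 and lowered 5 of 24 measured actin regulators in WT cells, and raised 8 and lowered 7 in KO cells. Over all tested genes 33.7% rose and 31.0% fell in WT cells, and 35.1% and 32.0% in KO cells, so the KO counts lie near the background. Marcks, an actin-binding membrane protein, rose by 2.36 and 2.28. Gsn, the actin-severing gelsolin, fell, with changes of -1.91 and -1.27. Its interaction of 0.64 (limma, adjusted p = 0.0326) was the 1 call among the 24, where 4.31% of all tested genes passed. Of the 5 phagocyte oxidase genes, 2 fell and 1 rose in WT cells and 3 fell in KO cells. In PBS 3 of the 5 were higher in KO cells, Cyba by 0.38, Ncf4 by 0.16 and Ncf1 by 0.50, against 8.06% of all tested genes.

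Interferon induces Fcgr1 and Fcgr4 in macrophages, so a list of interferon-stimulated genes was set beside them. Of 19 measured, 18 rose with LPS in WT cells (median 2.35) and 14 in KO cells (median 0.66). After LPS 16 were lower in KO cells and 0 higher (median -0.69), and 17 of the 19 had a negative interaction that passed the limma test, with Oas3 at -2.02, Oasl2 at -1.68, Usp18 at -2.10 and Irf7 at -1.52. In PBS 18 of the 19 were higher in KO cells (median 0.79), where Fcgr1 and Fcgr4 had negative estimates that did not pass. Over all tested genes 33.7% rose with LPS in WT and 35.1% in KO cells. In KO against WT cells 8.06% were higher in PBS and 19.5% lower after LPS, and 3.39% had a negative interaction that passed. On the arrays, the summed level of the 19 genes was 198, 199 and 189 in WT PBS, 1007, 1095 and 886 in WT LPS, 284 to 306 in KO PBS and 576 to 655 in KO LPS. WT PBS replicate 3, the array with the lowest Fcgr1 level, had an interferon sum of 189 against 198 and 199 on the other two. The part of interferon in the Fc receptor values was not tested.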

How the data were processed

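The authors deposited spot intensity values, per the file headers as background-corrected processed signals. The submitters' processing notes name Agilent Feature Extraction 11.5.1.1. Here log2 of that signal was reduced by the log2 of each array's 75th percentile over non-control spots, outlier-marked spots (76 to 125 per array) were dropped, and probes were named through RefSeq (32994 of 56605 probes). Probes well above background throughout the 3 arrays of 1 or more groups were kept (28827), and the brightest kept probe stood for each gene. One limma 3.58.1 model (R 4.3.3) with 4 group means and a variance trend was fitted over 12 arrays, two-sided, with Benjamini-Hochberg adjustment over 13283 genes for each of the 5 comparisons and a threshold of 0.05. The steps were tested on simulated data.

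The genes and lists were chosen with earlier results of these data known. The 6 receptor genes were always named, and from each list up to 4 called genes with the smallest p. Some genes of the lists are counted but not reported here by name.

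Residuals of equal replicate numbers correlated at 0.105, 0.371 and 0.481 for LPS in WT, which pairs those arrays by the rule that every pair exceed 0.1. The replicate block changed 0 of the 6 calls there. In the other comparisons the correlations ran from -0.102 to 0.113, and the numbers were not treated as pairs. By another measure the split differed: for LPS in KO each array correlated best with its own number, which WT replicate 1 did not. The alternatives were other scalings, filters, probe rules, slide terms and arrays left out. The number of arrays limits the precision.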

Additional observations from a re-analysis of the deposited data

How the results depend on the processing

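Across 26 alternative settings, the 30 gene changes gave 588 values, of which 518 kept their direction and their side of the threshold, 29 lost a call, 31 gained one and 10 turned sign. For LPS in WT, 4 to 6 of the 6 genes were called under every setting run (5 to 6 with one array left out, 6 with the replicate block). For LPS in KO, 1 was called under median centring, without the filter on dim probes, without the variance trend and, counting each gene's brightest probe, in a probe-level fit (2 with the dimmer Fcgr2b probe), 4 in a fit of the KO arrays alone, and 5 on slide 2 alone, with the replicate block and without both WT replicate 3 arrays; leaving out one array gave 1 to 2. For KO against WT in PBS, 2 were called with a slide term, 0 with the replicate block and 4 without both WT replicate 3 arrays, and 1 to 2 with one array left out. After LPS, 0 were called with a slide term and 1 to 3 with one array left out. In the interaction, 1 was called with the replicate block (Fcgr1, adjusted p = 0.0491), 2 without both WT replicate 3 arrays, and 0 to 1 with one array left out. The cause of these shifts was not tested.

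Sign turned for Fcer1g with LPS in KO (-0.16 under quantile normalization, -0.047 under normexp, and -0.054 to 0.082 with one array left out, against 0.18 on slide 2 alone) and after LPS (0.13 with a slide term). It turned for Fcgr1 in PBS (-0.81 to 0.0028 with one array left out), and for Fcgr2b after LPS (0.017 under quantile normalization, 0.097 for the mean of its probes, and -0.15 to 0.086 with one array left out). Normexp on the mean signal was not run, and the median signal was used in its place; this, the probe-level fit and leaving out both WT replicate 3 arrays were chosen after seeing the data. Slide 1 alone could not give LPS in KO or KO against WT after LPS.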

Other observations

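Fcgr2b, Fcgr4 and Fcgr3 lie next to each other on chromosome 1, in the order Fcrlb, Fcrla, Fcgr2b, Fcgr4, Fcgr3, Cfap126 and Sdhc, with predicted genes passed over. With LPS, Fcrla changed by -2.21 in WT and -2.38 in KO cells (limma, adjusted p = 2.69e-07 and 1.81e-07). Cfap126, next to Fcgr3, rose by 0.77 and 0.61, whereas Sdhc, which encodes a mitochondrial complex II subunit, changed by -0.13 and -0.31. After LPS, Fcgr4 was lower in KO cells, while Fcrla at -0.44, Cfap126 at -0.34 and Fcgr2b at -0.03 did not pass (adjusted p = 0.0553, 0.0783 and 0.884). Beside Fcgr1 on chromosome 3, the histone gene H2bc18 changed by -0.45 and -0.37 with LPS, opposite to Fcgr1. Beside Fcgrt on chromosome 7, Rcn3 changed by -1.47 and -1.45, with Fcgrt itself at -0.21 and -0.39.

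Among 11124 other genes well above background on all 12 arrays, those whose levels followed each receptor most closely by Pearson's r over the arrays were Selenot (0.99), Pak2 (0.99) and Stfa2 (0.98) for Fcgr1, and Minpp1 (0.98), Cma1 (0.97) and Frmd4a (0.97) for Fcgr4. They were Hsph1 (0.98), Copg1 (0.98) and Naa35 (0.98) for Fcgr3, S100a8 (0.95), Ltn1 (0.93) and Prdx3 (0.93) for Fcgr2b, Taf12 (0.94), Rmdn3 (0.94) and Cox5a (0.93) for Fcer1g, and Amz2 (0.96), Cmc1 (0.96) and Etfrf1 (0.96) for Fcgrt. Cma1, a mast-cell protease, is in the mast-cell list whose sum was low on WT replicate 3. Each r describes 12 arrays in 4 groups that share 1 scaling.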
